A study of Mus musculus with 6 samples.

Results

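The cytosolic ribosomal protein genes encode the protein part of the ribosome that translates nuclear messages. Members were all table rows whose symbol begins with Rps or Rpl followed by a digit, leaving out pseudogene symbols with -ps, the Rps6k kinases, Rps19bp1, Rpl7l1, Rpl22l1 and Rpl39l. The rule uses symbols and no measured value, and it found 80 of 24421 genes, 47 of the large subunit and 33 of the small subunit. Of these, Rpl37rt and Rps4l are annotated as transcribed processed pseudogenes, with no coding part, and were kept because the rule goes by symbol. The table comes from bulk RNA sequencing of C57BL/6 mouse cortex after MCAO, in which the middle cerebral artery is blocked by surgery to model an ischaemic stroke. The NeuroD1_MCAO group (3 samples) received NeuroD1, a transcription factor that drives neuronal fate, and the GFP_MCAO group (3 samples) received green fluorescent protein. Both groups had MCAO and, per the series title, the therapy was intravenous. The sources used here do not give the vector, its promoter, the time after stroke, or the age and sex of the animals. The labels do not say whether the samples are separate animals, and the p-values therefore measure only how these samples vary, and that variation may be technical.

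A ribosome holds 1 copy of nearly every one of these proteins, and cells make them in step with each other and with ribosomal RNA. Their messages are short and abundant, and most begin with a terminal oligopyrimidine (TOP) tract, a C followed by a run of pyrimidines, through which the kinase mTOR and the RNA-binding protein Larp1 set how much of the message is translated. In brain they are expressed in all cell types, and growing or dividing cells hold more ribosomes. In bulk tissue, fewer cells of a type and less RNA per cell cannot be told apart.

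The start regions of 6 members that frame the results are shown to let the reader see where a TOP tract lies. They are Rps23, Rps21 and Rpl9, the 3 members with the smallest p in the comparison of the groups, and Rpl15, Rps27l and Rps2, the 3 with the highest fold change. Each line runs from 15 bases before the start to 15 bases from it onward, the start being the one listed by RefSeq (GRCm38.p6), 5′ to 3′ on the gene's strand. Capitals mark the part shown of any run of 8 or more pyrimidines that reaches within 15 bases of that start.
Rps23: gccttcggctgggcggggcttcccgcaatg
Rps21: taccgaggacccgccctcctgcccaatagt
Rpl9: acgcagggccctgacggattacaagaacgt
Rpl15: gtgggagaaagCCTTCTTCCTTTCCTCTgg
Rps27l: CCaCTCCTCCCCgccgcctctatcccggaa
Rps2: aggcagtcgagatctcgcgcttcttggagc
These windows lie at chr13:90923107-90923136 (Rps23, plus strand), chr2:180257364-180257393 (Rps21, plus, the first of its listed starts), chr5:65391417-65391446 (Rpl9, minus), chr14:18270972-18271001 (Rpl15, minus), chr9:66946071-66946100 (Rps27l, plus, also the first) and chr17:24720048-24720077 (Rps2, plus). Of these 6, Rpl15 and Rps21 have a C at the listed start followed by 4 pyrimidines, Rpl15 carries a run of 17 bases, and Rps27l has runs of 9 bases upstream of the start. GENCODE M21 places all 30 bases of the Rps23, Rps2 and Rpl15 windows in an untranslated exon that begins further upstream. For Rpl9 it places 28 of the 30 bases in an untranslated exon, which also begins upstream of the listed start. The listed start is therefore not the only one annotated for these genes.

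Of the 80 members, 60 had at least 1 promoter window in the RefSeq table, 72 windows in all, each from 250 bases before to 50 after a start. A C at the listed start followed by 4 pyrimidines was found in 13 of 72 member windows (18.1%), against 2.50% of all 32841 windows. The looser pattern, a run of 8 or more pyrimidines reaching within 15 bases of the start, was in 30 member windows (41.7%), against 17.9% of all. On either strand, CCGGAAG, the core that ETS factors recognise, was in 24 member windows (33.3%), against 8.86% of all. ATGGCGG, a core of YY1 sites, was in 13 (18.1%), against 4.05%. TATAAA was in 5 (6.94%), against 13.6%. CTTCCGG, the reverse complement of CCGGAAG, begins with pyrimidines and can overlap a pyrimidine run, so these counts are not independent. A match is a description of sequence, not a bound site. The 29 tested members with a pyrimidine run had a median log2 fold change (NeuroD1 over GFP) of -0.52 and the 27 without one -0.59.

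Total counts were 10843273 to 13440244 in the NeuroD1 libraries and 7753101 to 9698795 in the GFP libraries. Neurod1 itself had 48.5, 14.6 and 38.4 CPM (counts divided by TMM-adjusted library size) in NeuroD1 replicates 1, 2 and 3, against 6.48, 3.87 and 5.43 CPM in the GFP replicates, higher in every NeuroD1 library. All 6 markers of neurons were detected, with a summed level of 1582 to 4041 CPM in the NeuroD1 libraries and 2034 to 3974 CPM in the GFP libraries. GFP replicate 2 stood apart: 7.25% of its counts fell on Rn45s, the ribosomal RNA precursor, against 0.220% to 0.753% in the NeuroD1 libraries and 0.752% and 1.22% in GFP replicates 3 and 1.

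The ribosomal protein genes together took a smaller share of the counts in every NeuroD1 library than in any GFP library. They held 1.12%, 1.39% and 1.43% of all counts in NeuroD1 replicates 1, 2 and 3, against 1.55%, 2.46% and 2.06% in GFP replicates 1, 2 and 3. On the TMM scale their summed level was 11369, 15153 and 13885 CPM in the NeuroD1 replicates, against 15248, 25514 and 18988 CPM in the GFP replicates. The groups do not overlap on either scale, but on the TMM scale GFP replicate 1 lay just above NeuroD1 replicate 2. GFP replicate 2 was the highest of the 6 on both scales. Both subunits show the same order: the large subunit summed to 6574, 8688 and 7967 CPM with NeuroD1, against 8766, 13832 and 10806 CPM with GFP, and the small subunit to 4795, 6466 and 5918 CPM, against 6481, 11682 and 8182 CPM.

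**Figure D1:**
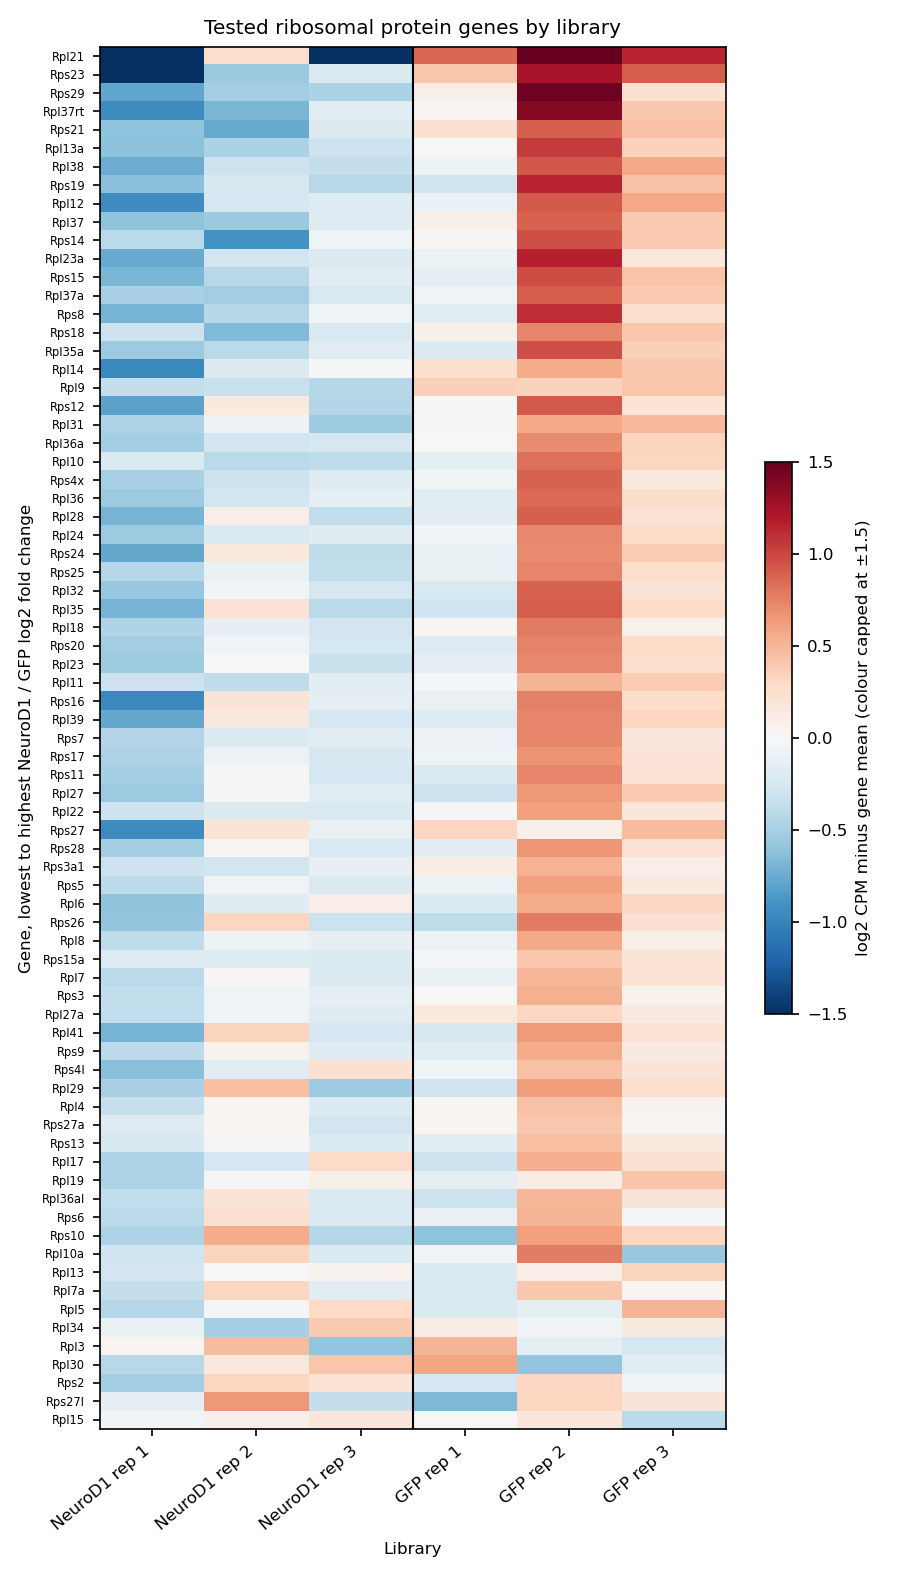
Heat map of the tested members, 1 of which is not drawn (rows, from the lowest to the highest NeuroD1 over GFP log2 fold change) in the 6 libraries (columns), coloured by log2 CPM minus the gene's mean over the libraries, capped at 1.5 either way. Of all 76 tested members, 65 are highest in GFP replicate 2 and 58 are lowest in NeuroD1 replicate 1, while Rpl3, Rpl30, Rpl15 and Rps27l at the foot follow other orders.

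Gene by gene, the members leaned one way, but none passed the test over all genes. Of 76 members with enough counts to test, 72 (94.7%) had a fitted level below that of GFP, against 48.3% of all 14852 tested genes, with a median log2 fold change of -0.58 against 0.02 for all tested genes. After Benjamini-Hochberg adjustment over all genes, edgeR's quasi-likelihood test called 0 members, and 0% of all genes, with a smallest adjusted p of 0.136 among the members. At an unadjusted p under 0.05, 30 members (39.5%) were lower and 0 higher, where the background was 11.5% lower and 12.5% higher. The groups did not overlap in 31 members (40.8%), all lower with NeuroD1, against a background of 15.3% lower and 14.2% higher. The large subunit had a median of -0.59 over 44 tested members and the small subunit -0.54 over 32. DESeq2 called 10 members, all lower (Rpl37a, Rpl38, Rps29, Rps23, Rpl37, Rps18, Rps21, Rpl9, Rpl37rt and Rpl13a), where its background was 3.87% lower and 5.04% higher. With limma-voom 0 members passed. The count of 30 was 8 without GFP replicate 2, where the background was 5.40% and the median -0.33, and 10 without NeuroD1 replicate 1, where the background was 5.56% and the median -0.45.

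Short transcripts in general were lower with NeuroD1, and the members are short. Among the 14693 other tested genes with a known transcript length, shorter transcripts were lower and longer ones higher with NeuroD1, with a Spearman rho of 0.30 across genes, which are not independent replicates. The median log2 fold change of other genes was -0.60 in 114 genes with transcripts under 500 bases, -0.35 at 500 to 1000 bases, -0.19 at 1000 to 1500 and -0.10 at 1500 to 2000. It was 0.21 at 4000 to 6000 bases and 0.32 over 6000. In the same bins up to 2000 bases the members had medians of -0.72 (11 members), -0.53 (46), -0.59 (11) and -0.51 (4). Members therefore lay below other genes of like length in each of these bins, by the least in the shortest. Rps20 and Rps15a are annotated at 3706 and 5130 bases, far longer than their coding parts, so their place on the length axis and their level per kb are uncertain.

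**Figure D2:**
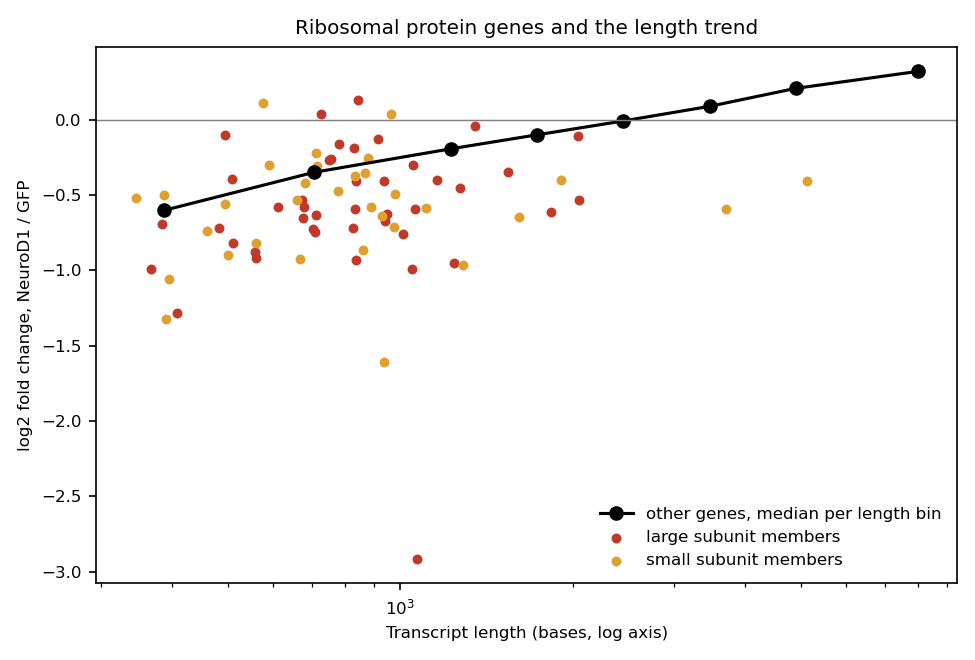
NeuroD1 over GFP log2 fold change of each tested member (points, coloured by subunit) against annotated transcript length (log axis, bases), with the median of other tested genes in each length bin (black line, drawn near the middle of each bin). Most members lie below the line, which itself runs from -0.60 in the shortest bin to 0.32 in the longest.

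The trend with length differed between libraries of the same group. The median of other genes under 500 bases, relative to each gene's mean over the 6 libraries, was -0.49, -0.17 and -0.13 on the log2 scale in NeuroD1 replicates 1, 2 and 3, against 0.02, 0.53 and 0.30 in the GFP replicates. In transcripts over 6000 bases it was 0.33, 0.05 and 0.07 in the NeuroD1 replicates, against 0.08, -0.29 and -0.24 in the GFP replicates. NeuroD1 replicate 1 was thus tilted towards long transcripts and GFP replicates 2 and 3 towards short ones, and GFP replicate 1 was nearly flat. The members' own median was -0.49, -0.07 and -0.21 in the NeuroD1 libraries, against -0.09, 0.67 and 0.24 in the GFP libraries, so NeuroD1 replicate 2 and GFP replicate 1 stood side by side.

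**Figure D3:**
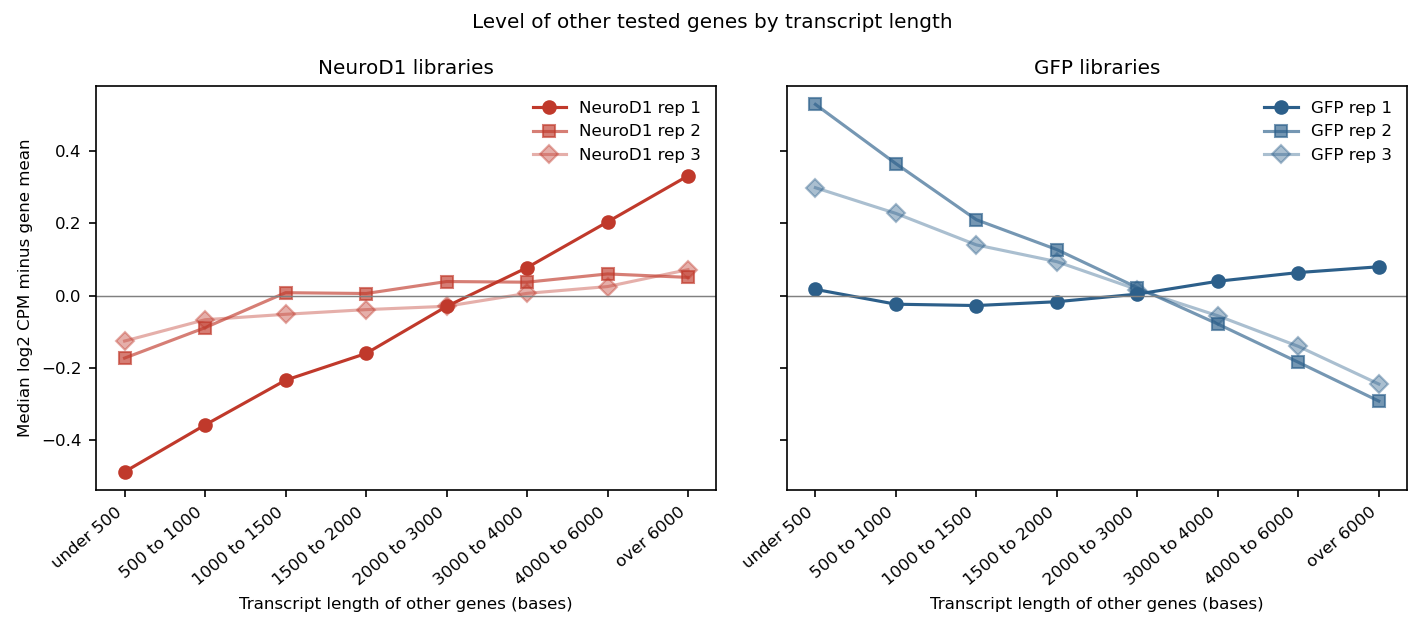
Median log2 CPM minus gene mean of the other tested genes (y) in 8 bins of transcript length (x, bases), 1 line a library, NeuroD1 libraries left and GFP libraries right. NeuroD1 replicate 1 climbs from -0.49 to 0.33, and GFP replicates 2 and 3 descend from 0.53 and 0.30 to -0.29 and -0.24.

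When each library's trend on transcript length, fitted to the other genes, was taken out as an offset, the members lay closer to the other genes. Their median log2 fold change was then -0.22, against 0.01 for all tested genes, and 57 of 76 were fitted lower, the sign having turned in 15. At an unadjusted p under 0.05, 12 members (15.8%) were lower, near the background of 11.9%, and 0 were higher, where the background was 11.3%. The 12 were Rps23, Rpl21, Rps15a, Rpl37, Rpl12, Rpl13a, Rps19, Rps29, Rpl37rt, Rps20, Rpl14 and Rps21. Of these, Rps15a and Rps20 have the uncertain long annotations given above, and the offset moved both lower (-0.41 to -0.65 and -0.59 to -0.72). Without it their unadjusted edgeR p was 0.069 and 0.070. Among the 72 tested members with transcripts under 2000 bases, 10 were lower. Length-adjusted levels did not overlap between the groups in 24 members on the lower side (31.6%), against 16.2% of all tested genes. The length-adjusted member median was -0.11, -0.03 and -0.16 in the NeuroD1 libraries, against -0.03, 0.32 and 0.02 in the GFP libraries, and GFP replicate 2 stood well above the other 5. Without that library the offset median was -0.12, and 1 member (1.32%) was lower at an unadjusted p under 0.05, against a background of 6.13%. With an offset on coding length, the median was -0.42 and 25 members (32.9%) were lower against a background of 12.8%; this offset left a rho of 0.21 with transcript length among other genes. Without any offset, the 2071 other genes in the members' central span of transcript length (389 to 1942 bases) and of level had a median of -0.16, with 64.5% fitted lower and 15.5% lower at an unadjusted p under 0.05. That span sets limits and does not match how the members are spread within it. Among other tested genes of any level, 881 had transcripts of 500 to 1000 bases and 1776 of 1500 to 2000, against 46 and 4 members. The median of -0.16 is therefore not that of genes matched to the members in length.

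Several other measures differ between the groups beside these values, and their part in the result was not tested. All NeuroD1 libraries had more counts than any GFP library. Summed markers of infiltrating myeloid cells (6 of 6 detected) were 2614 to 8134 CPM with NeuroD1 and 845 to 2227 CPM with GFP, and those of dividing cells (6 of 6) 197 to 684 CPM and 115 to 151 CPM. Endothelial markers (6 of 6) summed to 161 to 285 CPM with NeuroD1 and 354 to 527 CPM with GFP, and oligodendrocyte markers (6 of 6) to 6677 to 9183 CPM and 10528 to 20613 CPM. None of the groups overlapped in these 4 lists. Fibroblast markers (6 of 6) summed to 1376 to 5656 CPM with NeuroD1 and 728 to 1496 CPM with GFP, overlapping only where NeuroD1 replicate 3 lay below GFP replicate 3. All 6 fibroblast markers were higher at an unadjusted p under 0.05, where the background was 12.5%, with a median log2 fold change of 1.74. DESeq2 called all 6 higher, where its background was 5.04%. Lymphocyte markers (6 of 6) summed to 6.58 to 16.0 CPM with NeuroD1 and 1.01 to 7.06 CPM with GFP. The sums also overlapped for neuron, astrocyte, microglia and pericyte markers, and no marker was at 0 in all libraries.

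Rps15 and Rpl19 were among the 3 most abundant members per kb of transcript. Rps15, which sits at the decoding site of the small subunit and is needed for its export from the nucleus, averaged 684.5 ± 124 CPM per kb with NeuroD1 and 1274 ± 483 with GFP (SD, n = 3 each). By library it had 282, 338 and 406 CPM in NeuroD1 replicates 1, 2 and 3, against 412, 892 and 608 CPM in the GFP replicates. GFP replicate 1 lay just above NeuroD1 replicate 3, without overlap, and edgeR gave -0.90 on the log2 scale (SE 0.33; adjusted p 0.167). By library Rpl19, which bridges the subunits, had 296, 400.1 and 431 CPM with NeuroD1 and 370.03, 438 and 549 CPM with GFP. Per kb Rpl19 averaged 500.1 ± 94.2 CPM with NeuroD1 and 602 ± 120 CPM with GFP (SD, n = 3 each). The Rpl19 groups overlap, and its log2 fold change of -0.27 (SE 0.26) was 0.082 with the length offset. The median tested member had 278 CPM per kb over the 6 libraries.

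The members furthest below GFP were Rpl21, Rps23 and Rps29. Rpl21, a large subunit protein, had 1.43, 15.2 and 3.05 CPM in NeuroD1 replicates 1, 2 and 3, against 23.0, 96.3 and 27.9 CPM in the GFP replicates. The groups do not overlap, but each is spread widely, with NeuroD1 replicate 2 and GFP replicate 2 far above the rest of their groups. In edgeR the log2 fold change of Rpl21 was -2.92 (SE 0.88), with an adjusted p of 0.141, and -2.65 with the length offset. Rpl21 has 15 named pseudogenes in the annotation, and its level of 26.1 CPM per kb is far under that of most members. How its reads were shared with those copies is uncertain.

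Rps23, a decoding-site protein of the small subunit, had 32.5, 76.7 and 97.6 CPM in the NeuroD1 replicates, against 151, 266 and 212 CPM in the GFP replicates. All GFP libraries lay above all NeuroD1 libraries, GFP replicate 1 included. Its edgeR log2 fold change was -1.61 (SE 0.40), with an adjusted p of 0.136, and with the length offset it kept -1.33 (SE 0.33, adjusted p = 0.140), the smallest p of the members in that fit. With every gene first centred on its own mean over the libraries, Rps23 was set against the mean of all tested members in each library. It stood at -1.25, -0.46 and 0.0027 on the log2 scale in the NeuroD1 replicates, against 0.48, 0.57 and 0.65 in the GFP replicates. These values compare profiles over the libraries, not levels. Rps29, a small zinc-binding protein of the small subunit, had 74.3, 89.0 and 92.3 CPM with NeuroD1, against 136, 352 and 150 CPM with GFP. GFP replicate 2 stood far above the other GFP libraries, and the edgeR log2 fold change was -1.32 (SE 0.37; adjusted p 0.139), or -0.70 with the length offset.

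Rps21 and Rpl9 had, with Rps23, the smallest p. Rps21, a small subunit protein, had 131, 118 and 172 CPM in the NeuroD1 replicates, against 236, 371 and 270 CPM in the GFP replicates. The groups do not overlap, and edgeR gave -1.06 on the log2 scale (SE 0.26; adjusted p 0.136), or -0.49 with the length offset. Rpl9, a large subunit protein, stood out for how little it varied within each group: 166, 168 and 158 CPM with NeuroD1, against 272, 269 and 283 CPM with GFP. GFP replicate 2, the highest library for most members, was the lowest of its group for Rpl9. For Rpl9 edgeR gave -0.75 on the log2 scale (SE 0.19; adjusted p 0.136), or -0.37 with the length offset. By DESeq2, 4 of these 5 members passed its threshold, with adjusted p of 0.00191 for Rpl9, 0.00622 for Rps23, 0.00815 for Rps21 and 0.0198 for Rps29, while Rpl21 had 0.0664. The background of DESeq2 was 3.87% lower and 5.04% higher, and that fit had no length offset. These 5 were picked by fold change or p from the same counts, so their passing is not independent support.

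**Figure D4:**
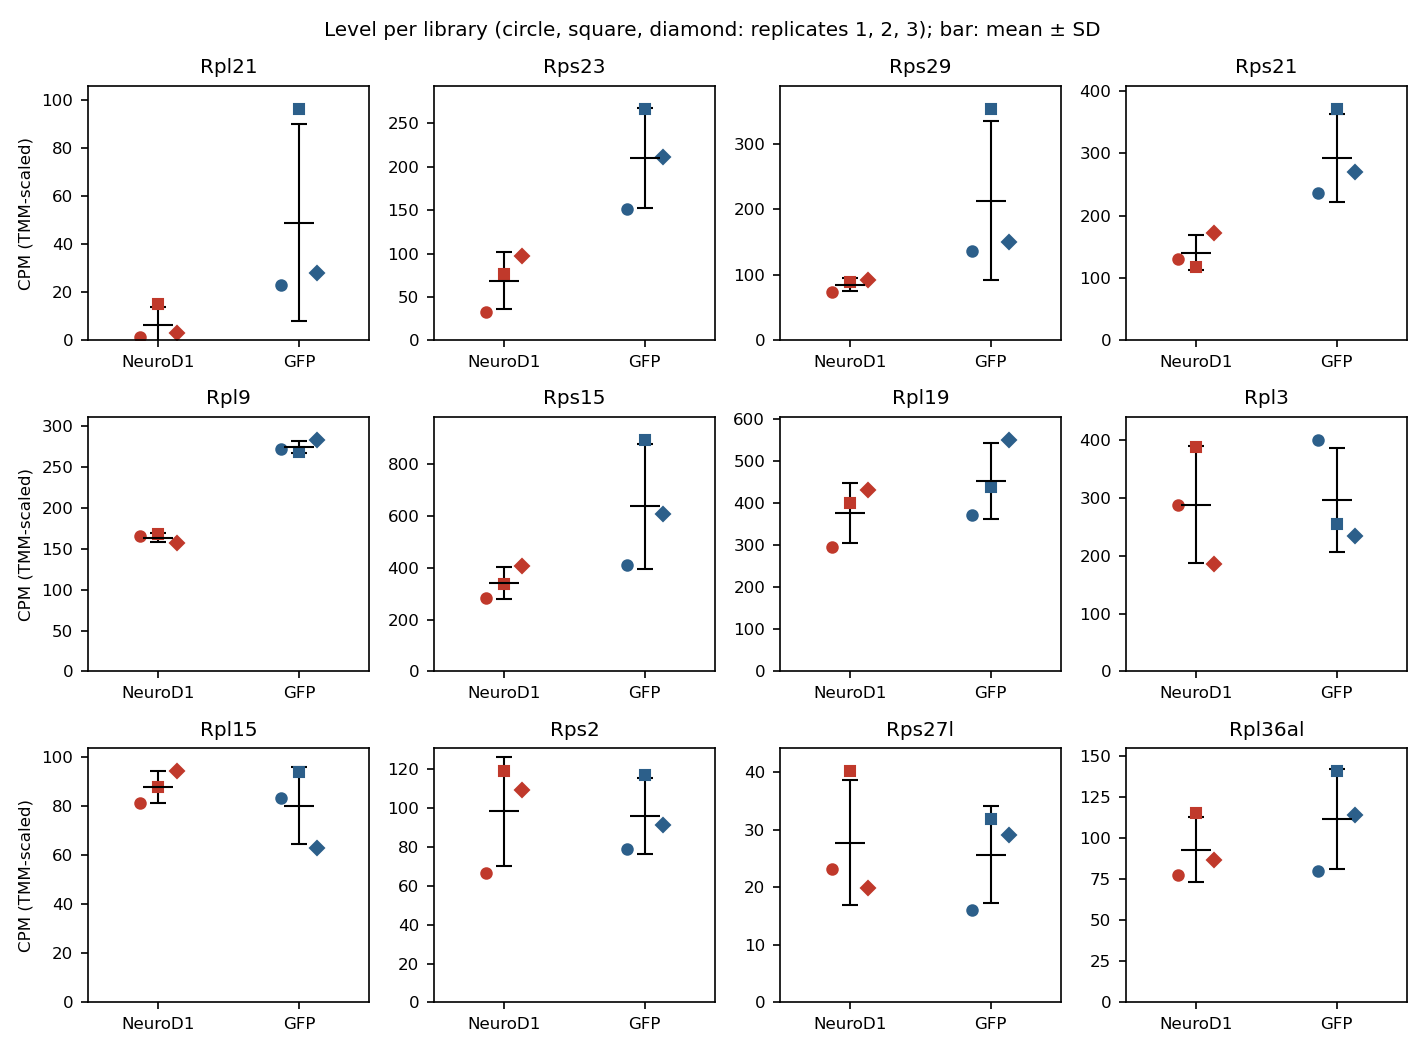
TMM-scaled CPM (y, from 0) of 12 members in the NeuroD1 and GFP libraries, 1 point a library (circle, square and diamond for replicates 1, 2 and 3), with bars for mean ± SD (n = 3; the lower bar of Rpl21 stops at the axis). Rpl9 shows tight, separate groups (158 to 168 against 269 to 283 CPM), and the groups overlap in Rpl3, Rpl15, Rps2 and Rps27l.

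At the other end, Rpl15, Rps27l and Rps2 had the highest fold changes, each smaller than its standard error. Rpl15, a large subunit protein, had 81.1, 87.8 and 94.2 CPM with NeuroD1 and 83.3, 93.9 and 62.9 CPM with GFP, a log2 fold change of 0.13 (SE 0.21), which was -0.014 without GFP replicate 3. Rps2, at the mouth of the mRNA channel, had 66.5, 119 and 109 CPM with NeuroD1 and 78.9, 117 and 91.1 CPM with GFP, a log2 fold change of 0.037 (SE 0.27), which turned to -0.046 with upper quartile scaling. Rps27l, a p53-induced copy of Rps27, had 23.1, 40.2 and 19.9 CPM with NeuroD1 and 16.0, 31.8 and 29.1 CPM with GFP, a log2 fold change of 0.11 (SE 0.35), which was -0.24 without NeuroD1 replicate 2. The groups overlap in all 3 genes, and each had an edgeR adjusted p of 0.718 or more.

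Most members followed one profile over the 6 libraries. The correlation of a member with the mean of the other tested members had a median r of 0.94 over the 6 libraries, and 48 of 76 members were above 0.9. Library depth, the length tilt and the scaling are shared by all these points. Only Rpl30, Rpl3 and Rpl15 had a negative r (-0.36, -0.16 and -0.03). Rpl3, which lies next to the peptidyl transferase centre, had 288, 389 and 186 CPM in NeuroD1 replicates 1, 2 and 3 and 399.7, 255 and 235 CPM in the GFP replicates. Its high libraries (NeuroD1 replicates 1 and 2 and GFP replicate 1) come from both groups, and its log2 fold change was -0.043 (SE 0.33), or 0.12 with the length offset.

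Members with roles outside the ribosome, chosen for those roles after their values were seen, were spread over the range. Rpl11 and Rpl5, which together bind Mdm2 and so stabilise p53 when ribosome assembly fails, had unlike values without the length offset. Rpl11 had 242, 229.7 and 265 CPM with NeuroD1, against 294, 427 and 388 CPM with GFP, without overlap (log2 fold change -0.59, SE 0.23). Rpl5 had 208, 275 and 343 CPM with NeuroD1 and 241, 252 and 398 CPM with GFP, with overlap (-0.11, SE 0.29). With the length offset, Rpl11 (833 bases) had -0.24 and Rpl5 (2045 bases) -0.032. The difference between the 2 genes was not tested. Rps6, the substrate of S6 kinase downstream of mTOR, had 216, 339.5 and 244 CPM with NeuroD1 and 264, 405 and 283 CPM with GFP (-0.25, SE 0.28, and 0.068 with the length offset). Rps27a, made as a fusion with ubiquitin, had 93.2, 109 and 87.1 CPM with NeuroD1 and 109, 141 and 108 CPM with GFP (-0.31, SE 0.21, and 0.078 with the length offset). The groups overlap in both, and both signs turn with the offset. Rps19, the gene most often mutated in human Diamond-Blackfan anaemia, had 79.1, 104 and 91.9 CPM with NeuroD1 and 99.3, 269.8 and 166 CPM with GFP (-0.96, SE 0.35, edgeR adjusted p = 0.165), with overlap at GFP replicate 1. Its value with the length offset was -0.72.

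Paralogs among the members differ in how much of their pair they make up. Rpl36al took 46.2%, 52.3% and 44.6% of the summed counts of Rpl36al and Rpl36a in the NeuroD1 replicates, against 38.5%, 40.2% and 41.3% in the GFP replicates, without overlap. Rpl36a (483 bases) had a log2 fold change of -0.72 (SE 0.24) and the longer Rpl36al (757 bases) -0.26 (SE 0.27), or -0.21 and 0.11 with the length offset. Rpl36al had 77.1, 115 and 86.4 CPM with NeuroD1 and 79.9, 141 and 114 CPM with GFP, and Rpl36a 89.7, 105 and 108 CPM, against 127, 209 and 162 CPM. The groups overlap for Rpl36al and do not for Rpl36a, and how reads shared by the pair were assigned is not known here. Rps4l, annotated as a transcribed pseudogene, took 4.62%, 5.59% and 6.63% of its pair with the X-linked Rps4x in the NeuroD1 replicates and 5.04%, 3.77% and 5.25% in the GFP replicates. By library Rps4l had 11.4, 15.7 and 20.6 CPM with NeuroD1 and 16.9, 23.9 and 20.1 CPM with GFP, with overlap. Rps4x had 235, 265 and 291 CPM with NeuroD1, against 319, 609.9 and 363 CPM with GFP, and X-linked Rpl10 127, 111 and 113 CPM, against 133, 260.5 and 184 CPM. Neither overlaps, and Rps4x and Rpl10 had log2 fold changes of -0.71 (SE 0.30) and -0.72 (SE 0.27). Rpl3l, the muscle form of Rpl3, had 2, 17 and 1 counts with NeuroD1 and 3, 6 and 4 with GFP, and was not tested.

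Some members were barely counted. Rpl26, Rps27rt and the testis paralog Rpl10l were listed at 0 in all 6 libraries, where 3 counts, the limit that a count of 0 allows, would be 0.223 to 0.387 CPM. Rpl30, Rpl34 and Rps27 had a mean under 10 CPM, between 1.74 and 6.16 CPM per kb. Rps27 had 14, 24 and 21 counts with NeuroD1 and 25, 16 and 26 with GFP, with overlap. In the annotation Rpl26 has 6 named pseudogenes, Rpl30 has 9, Rpl34 has 2 and Rps27 has 1. How the authors treated multi-mapping reads is not stated in the sources, so the level of these members is uncertain. The count of named pseudogenes did not sort the fold changes without an offset: the median was -0.49 in the 20 tested members with none, -0.58 in the 37 with 1 to 4 and -0.53 in the 19 with 5 or more. With the length offset these medians were -0.24, -0.23 and -0.11. Only symbols made of the parent's name and -ps were counted. Copies under other symbols are missed, so the split cannot show what multi-mapping reads did. Limits on single counts cover counting error only.

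Ribosomal proteins whose symbols fall outside the rule were mostly fitted lower as well. Of 7 tested, 6 were fitted lower, against 48.3% of all tested genes. At an unadjusted p under 0.05, 3 were lower, where the background was 11.5%. Their median log2 fold change was -0.47, or -0.10 with the length offset. Fau, a ubiquitin-like fusion that carries a small subunit protein, had a log2 fold change of -0.80 (SE 0.31), or -0.29 with the length offset. The stalk proteins Rplp0, Rplp1 and Rplp2, the first 2 chosen after their values were seen, had -0.20 (SE 0.37), -0.47 (SE 0.31) and -0.65 (SE 0.28). With the length offset these 3 had 0.0042, 0.018 and -0.10. Their transcripts are 1358, 499 and 449 bases. Gnb2l1, the scaffold protein also called Rack1 and likewise chosen later, had 0.024 (SE 0.25), or 0.20 with the length offset.

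Other genes of the translation machinery were set beside the members as lists, with the respiratory chain as other short transcripts. After adjustment edgeR called 0 of their genes, as it called 0 of all 14852 tested genes. At an unadjusted p under 0.05 the background for these lists was 11.5% lower and 12.5% higher. Short transcripts of the respiratory chain (76 tested, median length 759 bases) had a median of -0.39, with 23 lower and 0 higher at an unadjusted p under 0.05, and -0.05 with the length offset. Mitochondrial ribosomal proteins (77 tested) had a median of -0.21, with 3 lower, and 0.02 with the offset. Host genes of small nucleolar RNAs, several of which carry TOP tracts, had a median of -0.79 over 8 genes, with 4 lower and 1 higher, and -0.31 with the offset. Among them Gas5 averaged 90.5 ± 16.7 CPM with NeuroD1 and 195 ± 31.3 CPM with GFP (SD, n = 3 each). The groups do not overlap, and edgeR gave -1.11 on the log2 scale (SE 0.23; adjusted p 0.136), or -0.70 with the offset.

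Genes with longer transcripts stood elsewhere, beside the same background of 11.5% lower and 12.5% higher at an unadjusted p under 0.05. Translation factors, many of them with TOP tracts, had a median of -0.05 over 15 genes, with 0 at an unadjusted p under 0.05, and 0.09 with the offset. Poly(A)-binding protein gene Pabpc1 averaged 631 ± 231 CPM with NeuroD1 and 398 ± 51.9 CPM with GFP (SD, n = 3 each; log2 fold change 0.66, SE 0.31). Ribosome biogenesis genes, which make and assemble ribosomal RNA, had a median of 0.16 over 39 genes, with 0 at an unadjusted p under 0.05 and 0.08 with the offset. Genes of mTOR and TOP regulation had a median of 0.16 over 16, with 2 lower and 4 higher, and 0.09 with the offset. Of these, Larp4b, an RNA-binding relative of Larp1, averaged 79.6 ± 17.9 CPM with NeuroD1 and 37.5 ± 11.4 CPM with GFP (SD, n = 3 each; edgeR log2 fold change 1.08, SE 0.28, adjusted p 0.136). Ribosome rescue and quality control genes had a median of 0.02 over 11 genes, with 0 at an unadjusted p under 0.05, and -0.15 with the offset.

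**Figure D5:**
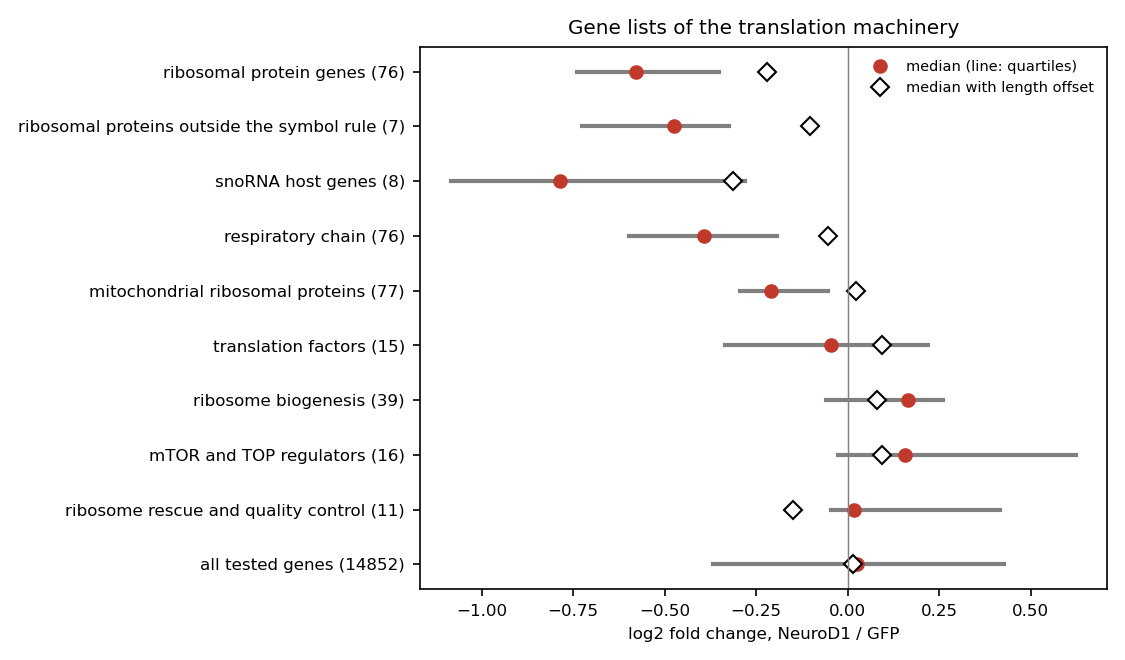
Median log2 fold change, NeuroD1 over GFP, of each list (red points, with grey lines from the first to the third quartile and the number of tested genes in brackets), and the median with the transcript length offset (open diamonds). The ribosomal protein genes move from -0.58 to -0.22 and the respiratory chain from -0.39 to -0.05, while ribosome biogenesis genes lie at 0.16 and 0.08.

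The 10 other genes whose level over the 6 libraries was most like the mean of the members were Puf60, Afap1l2, Pip5k1b, 2810428I15Rik, Myh11, Rras, Rhbdf1, Cdk11b, Carns1 and Phldb1, with a Pearson r of 0.994 to 0.997 over 6 libraries. With so few libraries, high values arise among many genes, and depth and scaling are shared. Their transcripts run from 671 bases (2810428I15Rik) to 6450 bases (Myh11, smooth muscle myosin), and all 10 were fitted lower with NeuroD1, from -0.17 (Pip5k1b) to -1.86 (Myh11). That direction follows from the choice, because the profile they were matched to is itself lower with NeuroD1.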

How the data were processed

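Per the file headers, the authors made raw counts per gene symbol with featureCounts on an mm10 gene file. The submitters' processing notes list HISAT2 2.0.1, DESeq2 1.16.1 and GRCm38, with no role for any. Strand and multi-mapping settings are not stated there. Columns were matched to samples by their descriptions, with none left unused.

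Counts were tested with edgeR 4.0.16 (R 4.3.3; filterByExpr with a minimum count of 10, TMM, quasi-likelihood F-test, treatment as only term), with Benjamini-Hochberg adjustment over all 14852 tested genes at 0.05 and limma 3.58.1 (voom) and DESeq2 1.42.0 as alternatives. Standard errors come from the F statistic. The fits were also run on simulated counts, with and without a length tilt, as a check of the code and not of these results. Transcript length (GENCODE M21, GRCm38, the median over transcripts with the longest coding part) was known for 99.4% of tested genes. Length offsets are splines with 4 degrees of freedom for each library, fitted without the members.

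Genes given in every sample were the 3 highest, 3 lowest and 3 smallest-p members, the 3 most abundant per kb, and paralog pairs. From each list up to 3 genes with the smallest p could be named. Other genes are given as chosen later. Members and lists were chosen with earlier results of these data known. A chi-square per gene between libraries ran from 29.1 to 165, and none was treated as a duplicate. Values of some single genes that this rule names are not reported here.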

Additional observations from a re-analysis of the deposited data

How the results depend on the processing

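The median of the ribosomal protein genes was below 0 in all settings: -0.76 to -0.33 with any 1 library left out, -0.67 with upper quartile scaling, -0.22 with the length offset, -0.27 with length and GC, -0.28 to -0.12 with the length offset and any 1 library left out (-0.18 without NeuroD1 replicate 1, -0.20 without NeuroD1 replicate 3, -0.12 without GFP replicate 2). edgeR called 0 members with any 1 library left out, and DESeq2 called 10. Over all genes DESeq2 called 1366 and edgeR 0 to 1 with a library left out, or 0 to 423 with the length offset as well (423 without NeuroD1 replicate 3, 2 without NeuroD1 replicate 2). With the replicate number as a block there were 479 calls among 14852 genes and 2 among 76 members (Rpl21 and Rps23). With block and length offset there were 271 among 14852 genes and 2 among 76 members. In both fits the share called among members was near that of all genes. Same-numbered libraries had correlated deviations of 0.54, 0.37 and 0.039, and 5 of 6 libraries correlated best with their own number, a hint from the data. The labels give the number no meaning and 1 of 3 pairs is near 0, so the block is kept as an alternative. The rho with transcript length was 0.0039 with the length offset and -0.000388 with length and GC, by construction. The length offset turned the sign of 15 of 76 members, from main values of -0.52 (Rps27) to -0.043 (Rpl3). Among the members that the naming rule covers these were Rpl19 (0.082; 0.14 with GC as well), Rpl36al (0.11; 0.033 with GC; 0.00077 with coding length), Rpl3 (0.12; 0.095 with GC), Rps27 (0.015) and, with GC only, Rps4l (0.16). Rps2 was -0.046 with upper quartile scaling and between -0.12 and 0.26 with a library left out. Over left-out libraries Rps27l ran from -0.24 to 0.31, Rpl15 from -0.014 to 0.26 and Rpl3 from -0.32 to 0.20. Causes were not tested. The coding length offset, the length offset combined with left-out libraries or the block, and the fit without Rn45s were chosen after seeing the data.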

Other observations

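Some rows that the symbol rule leaves out hold on-and-off counts. Rpl31-ps12, a processed pseudogene of Rpl31, had 2, 0 and 299 counts in NeuroD1 replicates 1, 2 and 3 and 0, 608 and 2 counts in GFP replicates 1, 2 and 3. The libraries with counts come from both groups, and the gene was chosen after its values were seen. Rps19-ps3 had 3, 3 and 6 counts with NeuroD1 and 9, 107 and 23 with GFP, highest in GFP replicate 2 as most members are. Other left-out pseudogene rows, Rpl14-ps1 and Rps15a-ps4, had steadier counts, with log2 fold changes of -0.50 (SE 0.36) and -0.63 (SE 0.21), or -0.08 each with the length offset.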
